A study of Mus musculus with 12 samples.

Results

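Bmal1 knockout myotubes in this series fall into 2 sets of 3 libraries that carry the same labels and differ in the level of genes that low oxygen induces. The libraries numbered 10, 11 and 12 were compared with those numbered 4, 5 and 6, which makes 6 of the 12 libraries. The sets were chosen by measured values, namely the high level of Egln3, Slc2a1, Ndrg1, Ankrd37 and other hypoxia-induced genes in libraries 10 to 12 and their low level in 4 to 6. Every difference between the sets is therefore given as a description, with no test, and the choosing genes support nothing.

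Myotubes, the fused multinucleated cells of skeletal muscle, were grown from primary myoblasts of mice with floxed Bmal1 alleles, in medium with horse serum. The 6 knockout libraries come from myotubes that received an adenovirus carrying the Cre recombinase for 48 hours, which excises the floxed part of Bmal1. The other 6 libraries, labelled wildtype, come from myotubes that carry the floxed alleles too and received an empty virus for the same time. The design describes a further exposure of 6 hours to either 21% or 1% oxygen, a model of the low oxygen in muscle after surgery.

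Oxygen was labelled 1% in all 6 knockout libraries and 21% in all 6 wildtype libraries, so the labels give no oxygen difference within the knockout. The design nevertheless speaks of both oxygen levels, and the hypoxia-induced genes divide the knockout libraries 3 to 3. The paper was not used here, so whether it assigns these libraries differently was not checked. The oxygen level of single libraries is not stated beyond the labels, and the sets are called by their library numbers throughout. The labels name no culture, mouse or batch for a library, so the spread within a set may be technical, and virus, culture and oxygen differences between the sets cannot be told apart. A whole culture received the virus, and the share of nuclei that recombined is not known here.

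Cells sense oxygen through prolyl hydroxylases of the EGLN family, which use oxygen to mark the alpha subunits of the hypoxia-inducible factor HIF for destruction by the VHL ubiquitin ligase. When oxygen is short, HIF alpha persists, pairs with ARNT and binds the core sequences ACGTG and GCGTG near genes for glucose uptake, glycolysis, vessel growth and mitophagy. BMAL1 belongs to the same protein family as the HIF subunits and pairs with CLOCK on the E-box CACGTG, which contains the first of those cores, to drive the daily rhythm of transcription.

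The promoters of the choosing genes and of 2 leading risers that hold a core are shown because HIF is known to act through these cores. Each runs from 250 bases before to 50 bases after the RefSeq gene start (GRCm38.p6, 5′ to 3′ on the gene's strand), and capitals mark ACGTG or GCGTG on either strand (the reverse strand reads CACGT or CACGC). Egln3 lies at chr12:54203825-54204124, minus strand. Slc2a1 lies at chr4:119108495-119108794, plus strand. Ankrd37 lies at chr8:45999801-46000100, minus strand. Selenbp1 lies at chr3:94932833-94933132 and Amz1 at chr5:140723877-140724176, both on the plus strand. Ndrg1 is named only.
Egln3: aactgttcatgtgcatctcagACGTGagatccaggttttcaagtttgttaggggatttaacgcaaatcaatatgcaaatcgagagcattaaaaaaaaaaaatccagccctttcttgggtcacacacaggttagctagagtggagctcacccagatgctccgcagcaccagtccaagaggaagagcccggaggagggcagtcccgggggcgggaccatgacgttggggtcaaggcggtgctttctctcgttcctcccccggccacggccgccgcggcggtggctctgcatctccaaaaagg
Slc2a1: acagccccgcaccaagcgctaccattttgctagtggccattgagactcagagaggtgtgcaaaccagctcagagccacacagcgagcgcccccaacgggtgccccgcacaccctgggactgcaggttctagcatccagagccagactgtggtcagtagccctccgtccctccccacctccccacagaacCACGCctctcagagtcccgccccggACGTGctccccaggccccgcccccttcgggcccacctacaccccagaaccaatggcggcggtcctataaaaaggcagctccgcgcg
Ankrd37: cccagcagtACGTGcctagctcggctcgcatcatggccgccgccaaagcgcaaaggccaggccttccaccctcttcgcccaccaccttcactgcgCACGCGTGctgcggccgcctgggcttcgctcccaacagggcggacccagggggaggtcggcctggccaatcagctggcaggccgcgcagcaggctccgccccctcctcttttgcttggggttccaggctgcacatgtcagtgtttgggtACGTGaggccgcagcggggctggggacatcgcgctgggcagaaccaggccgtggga
Selenbp1: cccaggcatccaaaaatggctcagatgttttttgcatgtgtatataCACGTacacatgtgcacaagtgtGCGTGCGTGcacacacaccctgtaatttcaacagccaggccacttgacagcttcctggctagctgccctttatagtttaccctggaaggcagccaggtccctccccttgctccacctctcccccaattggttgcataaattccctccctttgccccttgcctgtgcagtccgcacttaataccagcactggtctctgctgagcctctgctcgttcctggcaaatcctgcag
Amz1: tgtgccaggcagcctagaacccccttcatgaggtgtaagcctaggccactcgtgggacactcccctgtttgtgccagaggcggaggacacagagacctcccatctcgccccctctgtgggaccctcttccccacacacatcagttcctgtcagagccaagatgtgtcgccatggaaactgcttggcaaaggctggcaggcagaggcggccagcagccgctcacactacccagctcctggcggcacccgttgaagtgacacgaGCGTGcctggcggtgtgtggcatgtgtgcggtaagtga

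The Egln3 and Amz1 promoters held 1 match each, Slc2a1 held 2, Selenbp1 held 3 and Ankrd37 held 4. Selenbp1 and Amz1 were taken as the largest risers whose promoter was found and held a core. That they hold a match was therefore fixed by the choice, and risers without one were passed over. Such matches are common: 64.6% of the 9410 promoters found among all genes analysed held at least 1, and 26.3% held ACGTG. Among genes at least 2-fold higher in libraries 10 to 12 the shares were 69.5% and 35.5%, and among those at least 2-fold lower 66.0% and 32.1%. The E-box CACGTG stood in 10.4% of all promoters, 9.0% of those of the higher genes and 18.2% of those of the lower genes. The table held a promoter for 75.6% of all genes, 74.2% of the higher ones and 70.0% of the lower ones. These are under 80%, so the comparison of shares is void and is printed as a description of the promoters that were found. A match is a run of letters and was not tested as a binding site.

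Values are the authors' normalized counts of sequenced fragments per gene, and fold changes are differences of mean log2(value + 1), which understates the change of low genes. A gene was counted as higher or lower where the set means differed at least 2-fold and all 3 values of one set lay above all 3 of the other. The knockout libraries held 6671694 to 12463339 reads, of which 52.2% to 65.4% belonged to 8 very abundant genes, leaving 2307238 to 5161660 for all others. Library 10 was the shallowest, with a floor of 3 reads at 5.85 normalized counts, against 2.47 to 3.73 in the others. Abundant transcripts moved with the sets, apart from library 5. ENSMUSG00000045999, a gene without a name in GENCODE, took 3.82%, 30.5% and 1.47% of reads in libraries 4, 5 and 6 and 42.3%, 28.7% and 36.6% in 10, 11 and 12. Gm42418, a non-coding gene known to collect ribosomal RNA reads, took 20.1%, 1.33% and 34.8% in the former and 2.46%, 2.75% and 2.03% in the latter. Library 5 thus resembled libraries 10 to 12 in the abundant genes, while its hypoxia-induced genes stood at the level of libraries 4 and 6, as shown next.

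Arntl, the gene of BMAL1 and the target of the deletion (chr7:113207465-113314126, plus strand), did not separate the sets. Its normalized counts were 45.3, 42.3 and 41.7 against 42.9, 47.3 and 48.6 (means 43.1 ± 1.94 and 46.3 ± 3.01, SD, n = 3 each), and the sets overlapped. Here and below, values are listed in the order of libraries 4, 5 and 6 against 10, 11 and 12. In the wildtype libraries its means were 143 in numbers 1 to 3 and 171 in 7 to 9, so all 6 knockout libraries carried the low Arntl level of their genotype label. The counts cover the whole gene, and reads outside the excised part still count.

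The genes that chose the sets are described first. Egln3, the oxygen-sensing hydroxylase that HIF itself induces, stood at 262, 194 and 202 against 2036, 2056 and 2143 (means 219 ± 37.1 and 2078 ± 56.9, SD, n = 3 each, 9.51-fold). Slc2a1, the glucose transporter GLUT1, stood at 581, 588 and 549 against 3168, 3337 and 3554 (means 573 ± 20.8 and 3353 ± 193, SD, n = 3 each, 5.84-fold). Within each set these levels were tight, and no library lay between the sets. Ndrg1, a hypoxia and stress response gene (chr15:66929318-66969640, minus strand), stood at 329, 304 and 299 against 5061, 5406 and 5305 (means 310.5 ± 16.0 and 5258 ± 177, SD, n = 3 each, 16.9-fold). Ankrd37, a small ankyrin repeat gene, stood at 15.7, 13.7 and 11.5 against 138, 175 and 233 (means 13.6 ± 2.06 and 182 ± 47.5, SD, n = 3 each, 12.3-fold). Relative to its mean, Ankrd37 varied most of the 4 within libraries 10 to 12. The bulk libraries do not tell fewer cells with a transcript from less transcript per cell, which holds for every gene that follows.

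**Figure D1:**
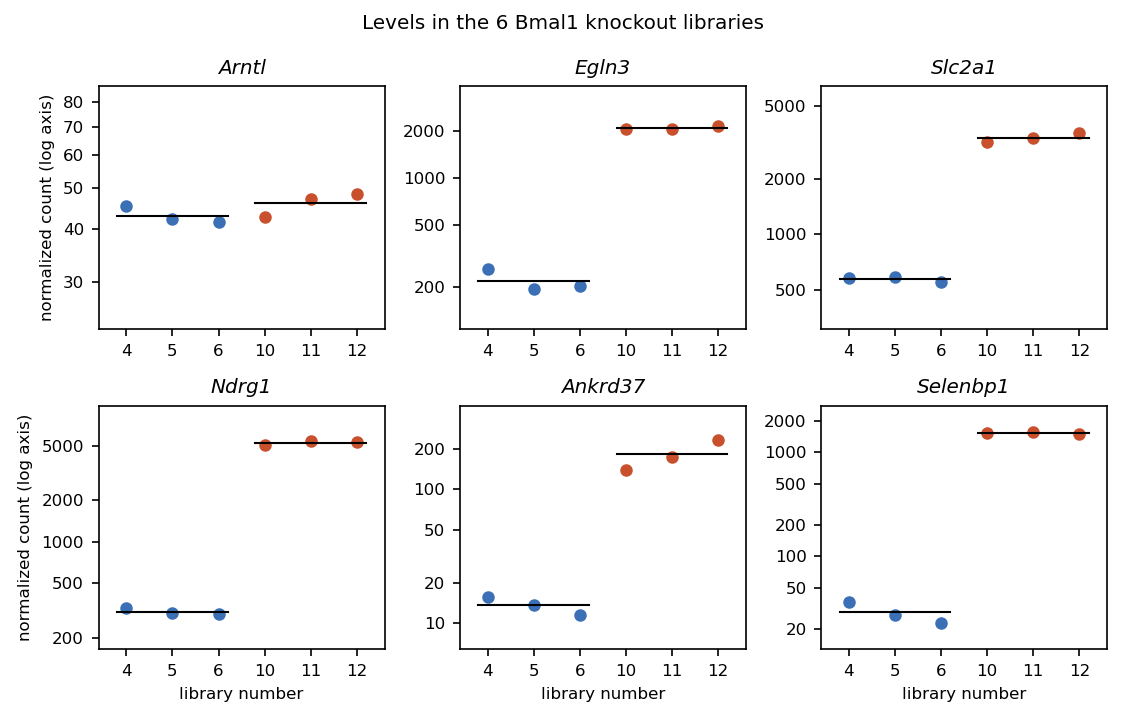
Normalized counts (log axes, 1 scale per panel) of Arntl, of the 4 genes that chose the sets and of Selenbp1 in the 6 knockout libraries. Points are libraries, blue for 4 to 6 and red for 10 to 12, and lines are the means of 3. Arntl overlaps between the sets, and the other 5 genes do not.

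Over all 12448 genes with a mean of 10 or more in these libraries, 539 were higher in libraries 10 to 12 (4.33%) and 227 were lower (1.82%). The median log2 difference of all genes was -0.02, and 7753 further genes lay under the minimum. The asymmetry came with size: 145 genes were at least 4-fold higher and 55 at least 8-fold higher, against 15 and 2 lower. With no minimum fold, the sets failed to overlap in almost equal numbers, 2487 higher (20.0%) and 2491 lower (20.0%). The higher genes had a median log2 difference of 1.51 and a median normalized count of 93.1, not scaled for length. The lower genes had -1.25 and 32.9, and the median count of all genes was 116. When the 8 abundant genes were left out and the rest scaled to library totals, the median of all genes moved to -0.11 and the counts to 476 higher and 311 lower, so single differences are relative to the deposited scale. Of the higher genes, 68 had a library among 4 to 6 with 3 reads or fewer. The minimum mean was taken over all 6 libraries, so a gene could reach it through 1 set alone. At the 2-fold edge, Trib3 (1.003) was just inside and Zbtb4 (0.998) just outside for the higher genes, and Camkk2 (-1.009) and Kif18b (-0.998) for the lower ones. The gene lists below are given by the number of measured members past this rule and their median, to be set beside 4.33%, 1.82% and -0.02 for all genes. Counts of members without overlap are to be set beside 20.0% higher and 20.0% lower. From 0 to 8 members per list were not measured, since they lay under the minimum or were absent from the deposited values. As the sets were chosen on this contrast, nothing further is read from these counts.

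**Figure D2:**
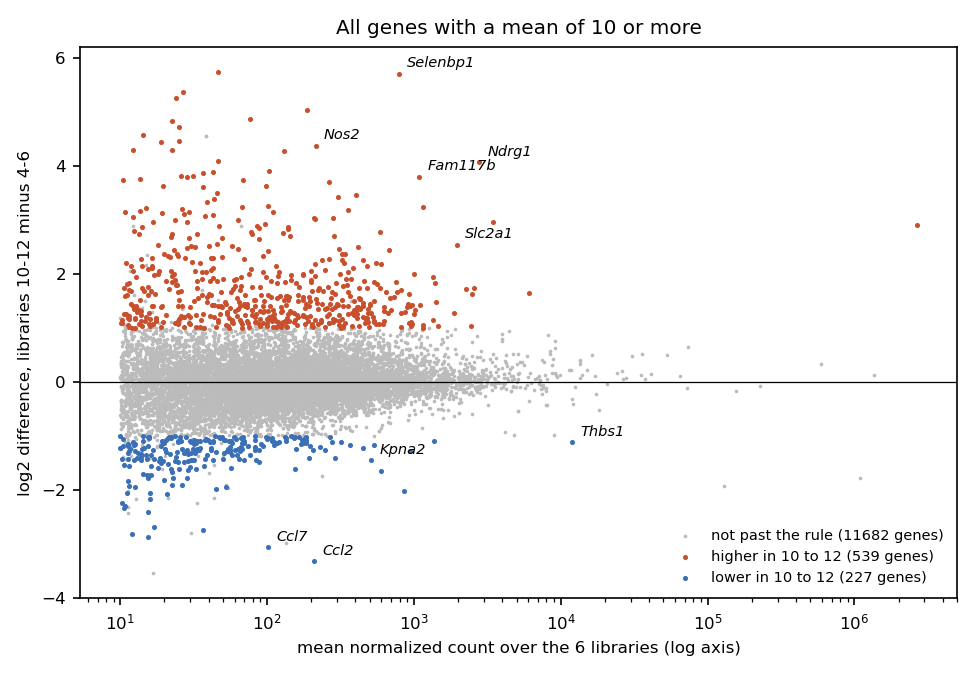
Log2 difference (libraries 10 to 12 minus 4 to 6) against mean normalized count over the 6 knockout libraries (log axis), 1 point per gene. The 539 higher genes (red) reach further from 0 than the 227 lower genes (blue), and the red point at the far right is ENSMUSG00000045999. As a share of reads this gene overlapped between the sets, with 30.5% in library 5 and 28.7% in library 11.

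Selenbp1 led the genes with a mean of 50 or more. This selenium-binding methanethiol oxidase stood at 36.3, 27.4 and 23.1 against 1550, 1563 and 1518 (means 28.9 ± 6.73 and 1544 ± 22.9, SD, n = 3 each), a 52.5-fold difference. Cacna1h, a T-type calcium channel subunit, followed at 12.4, 3.73 and 19.5 against 345, 415 and 320.4 (32.9-fold), and Atp7b, a copper-transporting ATPase, at 4.94, 2.49 and 5.32 against 144, 153 and 146 (29.3-fold). Both were near the detection floor in libraries 4 to 6, where Cacna1h had 15, 3 and 22 reads and Atp7b 6, 2 and 6, so the size of their folds is imprecise. Nos2, the inducible nitric oxide synthase, went from 18.9 ± 3.38 to 409.9 ± 36.3 (20.8-fold), and the metallopeptidase gene Amz1 from 12.4 ± 5.38 to 246.5 ± 42.9 (19.4-fold). Fam117b stood at 157, 136 and 140.2 against 1950, 2062 and 2058 (14.0-fold). Depp1, a FOXO-regulated gene, and Kbtbd11, a kelch-repeat gene, were 13.3- and 13.1-fold higher. Apart from Fam117b, the genes of this paragraph reached the mean of 50 through libraries 10 to 12 alone. Atp7b and Depp1, with means of 4.25 and 8.96 in 4 to 6, also reached the minimum of 10 in that way.

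Genes of oxygen sensing itself were next. Of 9 measured, 3 were higher and none lower by the rule, and the list median was 0.44. Besides Egln3 these were Egln1, the main HIF prolyl hydroxylase, at 405, 386 and 406 against 1589, 1635 and 1580 (4.0-fold), and Vhl, the substrate receptor of the HIF ubiquitin ligase, at 135, 149 and 149 against 479.6, 561 and 608 (3.77-fold). Neither overlapped between the sets. Hif1a, chosen here after its value was seen, was the lowest of the list, with a log2 difference of -0.62 and no overlap, while Arnt, its partner, differed by 0.03.

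A broader list of 36 other hypoxia-induced genes had 29 members higher, none lower, and a median of 1.73. This list contains Ndrg1, Ankrd37 and Selenbp1 and was compiled with the split known, so its count describes how far the split reaches and is no independent evidence. Hilpda, a lipid droplet protein, Zfp395 and Ero1l, the oxidase of disulfide formation, were 3.05, 3.04 and 2.96 higher on the log2 scale. The pH-regulating carbonic anhydrases Car12 and Car9 were 2.47 and 2.04 higher, and the mitophagy receptors Bnip3 and Bnip3l 1.74 and 1.34. Bnip3 stood at 1159, 1286 and 1102 against 3876, 3948 and 4044. The 7 members that missed the rule were Fam162a, Fam13a, Insig2, Narf, Trf, Tfrc and Pfkfb4, from 1.00 down to -0.23. Apart from Bnip3, Bnip3l, Ndrg1, Ankrd37 and Selenbp1, these genes were picked after their values were seen.

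Genes of glucose entry and lactate exit followed. Of 6 transporters, 4 passed the rule with none lower (median 1.69), among them Slc2a1, which chose the sets. Slc2a3, the high-affinity glucose transporter GLUT3, stood at 43.7, 59.7 and 50.6 against 538, 576 and 559.8 (10.8-fold). The lactate exporter Slc16a3 was 1.28 higher on the log2 scale. Slc2a12 was 4.31-fold higher, but it rested on 5, 10 and 3 reads in libraries 4 to 6 and 11, 23 and 34 in 10 to 12, and it reached the minimum mean of 10 through the latter, so the choice of genes fixed part of the count and median. Of the transporter genes the insulin-responsive Slc2a4, at 0.76, overlapped between the sets.

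Glycolysis showed a graded picture, with 5 of 23 genes higher, none lower, and a median of 0.41. The 5 were the hexokinases Hk1 and Hk2, phosphofructokinase Pfkp, the regulator Pfkfb3 and aldolase C, Aldoc. Hk1 stood at 1103, 1016 and 1060 against 3455, 3481 and 3560 (3.30-fold) and Pfkfb3, which makes the activator of phosphofructokinase, at 184, 131 and 161 against 549.8, 680.5 and 544 (3.73-fold). Another 10 enzymes were higher without overlap and under 2-fold, among them Gapdh (0.50), Pgk1 (0.37) and Ldha (0.37), named here after their values were seen. In all, 15 of the 23 were higher without overlap, where 20.0% of all genes were. The 6-phosphofructokinase-2 genes differed among themselves: Pfkfb3 was higher, while Pfkfb1 (-0.93) and Pfkfb4 (-0.23) overlapped. Where pyruvate enters mitochondria, 1 of 11 genes passed: Pdk1, the kinase that inactivates pyruvate dehydrogenase, at 533, 457 and 508 against 1178, 1241 and 1277 (2.47-fold). The median of those 11 was -0.05.

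Glycogen genes were among the most strongly different. Of 16 measured, 6 were higher and none lower, with a median of 0.68. Ppp1r3c, a subunit that brings protein phosphatase 1 to glycogen, stood at 12.4, 9.95 and 13.3 against 181, 190.4 and 206 (15.1-fold), and its relative Ppp1r3b at 65.9, 63.5 and 79.9 against 608, 652 and 668 (9.14-fold). Gbe1, the branching enzyme, stood at 105, 144 and 88.7 against 554, 513 and 529 (4.77-fold). Gys1, muscle glycogen synthase, Pygl, liver-type glycogen phosphorylase, and Pgm1 were 1.83, 1.67 and 1.15 higher on the log2 scale, so synthesis and breakdown genes were both among the higher ones. The muscle isoform genes Ppp1r3a (-0.04) and Pygm (0.03), picked after their values were seen, overlapped between the sets.

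Secreted vessel-growth signals divided. Of 25 genes, 5 were higher and 1 lower, with a median of 0.18. Pgf, placental growth factor, stood at 62.6, 70.9 and 63.9 against 753, 759 and 693 (11-fold). Vegfa, the main endothelial growth factor, stood at 541, 569.8 and 562 against 2114, 2103 and 2249 (3.86-fold), and Apln, the peptide apelin, at 251, 277 and 223 against 864, 881 and 893 (3.52-fold). These 3 were uniform within sets. Angptl4 and Flt1, a VEGF receptor, were 1.61 and 1.25 higher on the log2 scale. Hgf, the hepatocyte growth factor that acts on muscle precursors, was the 1 lower gene, at 70.0, 80.9 and 76.3 against 23.4, 38.3 and 34.3 (2.37-fold lower).

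Chromatin dioxygenases, which like the EGLN enzymes need oxygen, came next. Of 18 JmjC demethylase and TET genes, 6 passed and none were lower, with a median of 0.79. Of the 18, 13 were higher without overlap, where 20.0% of all genes were. Tet2, a DNA methylcytosine oxidase, went from 137 ± 5.22 to 404.3 ± 17.5 (2.95-fold). Jmjd6 went from 222 ± 35.1 to 640.0 ± 62.0 (2.90-fold), and Kdm6b, a histone H3 lysine demethylase, from 167 ± 31.6 to 476.6 ± 20.1 (2.88-fold). Collagen-modifying enzymes also use oxygen, and 2 of 12 passed with none lower (median 0.51). Plod2, a collagen lysyl hydroxylase, stood at 1218, 1253 and 1136 against 3584, 3809 and 3811 (3.11-fold), and Plod1 was 2.05-fold higher, close to the threshold.

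**Figure D3:**
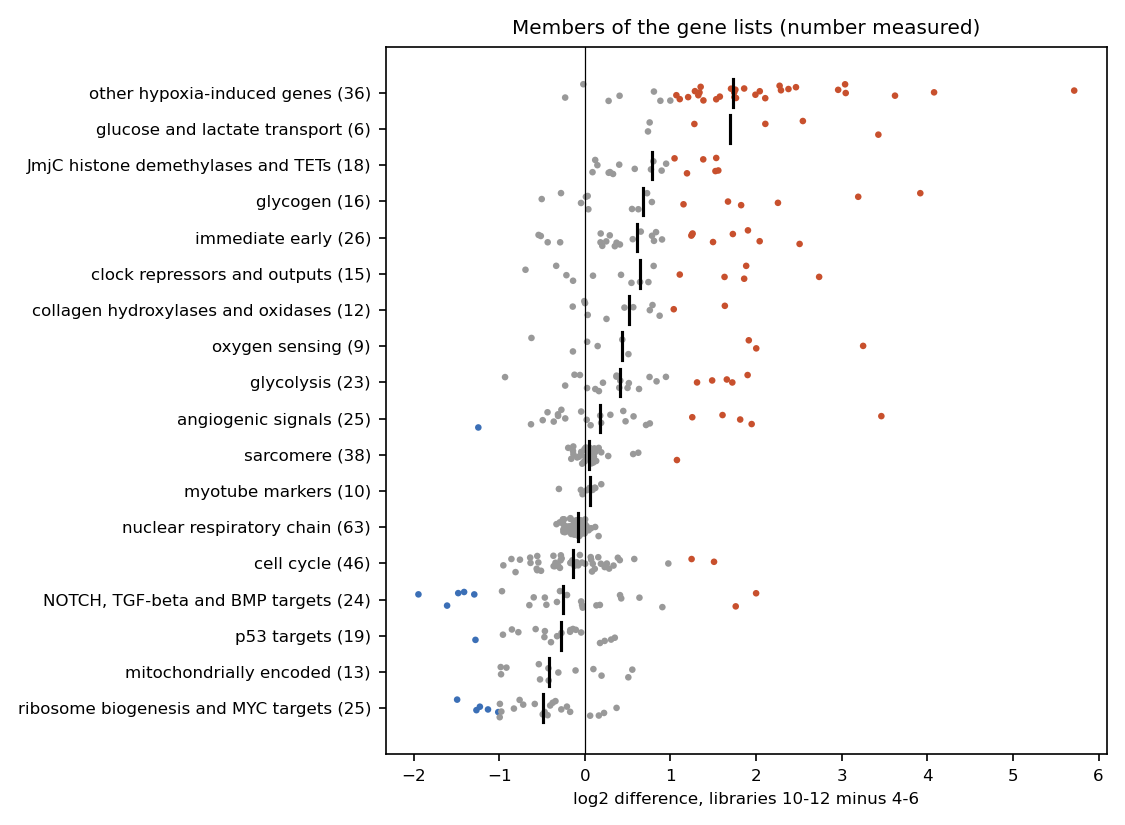
Log2 differences (libraries 10 to 12 minus 4 to 6) of the measured members of 18 gene lists, 1 point per gene, with the number of members in parentheses and a black bar at each list's median. Red and blue points passed the 2-fold rule as higher and lower, and grey points did not. Hypoxia-induced genes and glucose transporters lie furthest to the right, and ribosome biogenesis genes lie lowest.

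Of 37 collagen and matrix genes, 1 was higher and 1 lower, with a median of 0.16, where 4.33% of all genes were higher and 1.82% lower. Without overlap 23 of the 37 were higher and 4 lower, where 20.0% of all genes were higher and 20.0% lower. Timp3, an inhibitor of matrix metalloproteinases, was 2.93-fold higher, at 338, 348 and 358 against 1016, 1020 and 1032. Thbs1, the matrix protein thrombospondin 1, which restrains vessel growth, was 2.16-fold lower, at 16484, 16225 and 16504 against 7282, 8017 and 7471. Both genes were separated between the sets by far more than the spread within them.

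The clock genes, the other system in the study's design, included 6 of 19 that passed as higher and none as lower. Among 4 measured activators this was Rora, a nuclear receptor that activates Bmal1, at 249, 281 and 287 against 702, 657 and 729 (2.55-fold). Clock, the partner of BMAL1, was lower without overlap but under 2-fold, at 312, 326 and 298 against 216, 244 and 248 (log2 difference -0.40). Npas2, a paralogue of Clock, differed by 0.18 and overlapped.

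Of 15 clock repressors and outputs, 5 were higher, with a list median of 0.65. Ciart, a repressor of CLOCK and BMAL1, stood at 15.7, 22.4 and 22.2 against 127, 125 and 165 (6.66-fold). Bhlhe40 and Bhlhe41, the DEC repressors that bind E-boxes, stood at 323, 374 and 279 against 1061, 1175 and 1304 and at 101, 58.5 and 95.0 against 335, 253 and 342. These correspond to 3.63- and 3.69-fold. Cry2, a cryptochrome repressor, went from 142 ± 26.4 to 438.5 ± 11.1 (3.10-fold), and Nfil3, a bZIP repressor, from 147 ± 10.9 to 317.7 ± 7.79 (2.16-fold). Bhlhe40 and Nfil3 also stand in the hypoxia list, so the lists are not separate counts.

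Clock genes that missed the rule included paralogues of the higher ones and direct BMAL1 targets. Cry1, the other cryptochrome, stood at 222, 194 and 185 against 179, 177 and 188 and overlapped, in contrast to Cry2. Per1 (0.74), Per2 (0.80) and Csnk1d (0.65), the kinase that phosphorylates PER proteins, were higher without overlap and under 2-fold. Per1 and Per2 came close to overlap. For Per1, library 5 stood at 146 and library 11, the lowest of 10 to 12, at 151. For Per2, library 6 stood at 103, beside 53.6 and 47.3 in 4 and 5, and the lowest of libraries 10 to 12 at 108. The BMAL1 targets Nr1d2 (0.42) and Dbp (0.54) overlapped, and Tef, a PAR bZIP factor (-0.33), and Wee1, a cell cycle kinase (-0.69), were lower without overlap. Csnk1e (-0.22) and Tspan4 (0.10) overlapped.

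**Figure D4:**
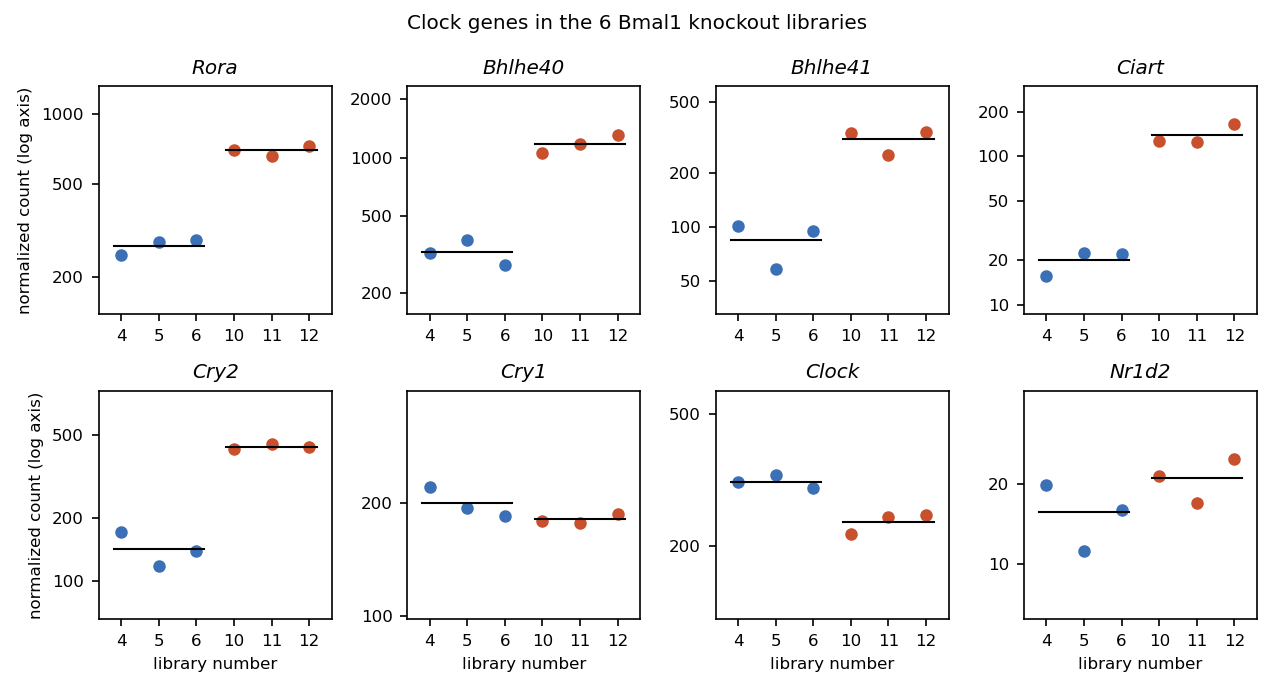
Normalized counts (log axes, 1 scale per panel) of 8 clock genes in the 6 knockout libraries, blue for libraries 4 to 6 and red for 10 to 12, with lines at the means of 3. Rora, Bhlhe40, Bhlhe41, Ciart and Cry2 separate upward by 2.55-fold or more, Clock is lower without overlap, and Cry1 and Nr1d2 overlap.

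Metallothioneins and early response genes also differed. Mt1 and Mt2, the metal-binding proteins, were 5.42- and 6.87-fold higher, Mt2 at 138, 154 and 149 against 922, 1006 and 1132. With Hmox1, heme oxygenase 1 (2.44-fold), they made up the 3 of 34 antioxidant genes that passed, and the list median was 0.02. Of 26 immediate early genes, 8 were higher and none lower, with a median of 0.61. Ier3, Maff and Fos were 5.69-, 4.12- and 3.74-fold higher, Ier3 at 116, 148 and 107 against 653, 709 and 749.5. Atf3 (3.31-fold) belongs both there and among the 42 stress and unfolded protein response genes, of which 4 passed, Vldlr, the very low density lipoprotein receptor, at 3.27-fold and Ppp1r15a at 2.16-fold among them.

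The chemokines Ccl2 and Ccl7, which attract monocytes, were the 2 genes that passed the rule at 8-fold lower or more. Ccl2 stood at 335, 416 and 381 against 33.1, 45.1 and 33.4 (means 377 ± 40.2 and 37.2 ± 6.82, SD, n = 3 each, 9.96-fold lower). Ccl7 stood at 162, 216 and 166 against 23.4, 18 and 21.0 (means 181 ± 30.5 and 20.8 ± 2.69, SD, n = 3 each, 8.33-fold lower). Both were low in every one of libraries 10 to 12. Macrophage and leukocyte markers had 2 of 8 members with a mean of 10 or more, and their summed level was 72.8 to 101 in libraries 4 to 6 and 68.2 to 104 in 10 to 12. Their ranges overlapped while the chemokines did not.

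Genes of NOTCH, TGF-beta and BMP signalling divided, with 2 of 24 higher and 5 lower and a median of -0.25. Jag1, a NOTCH ligand, stood at 443, 416 and 405 against 144, 154 and 176 (2.66-fold lower), and Heyl, a NOTCH target and transcriptional repressor, at 75, 90.8 and 81.6 against 13.6, 19.2 and 33.4 (3.84-fold lower). The BMP targets Id3 and Id1, inhibitors of myogenic bHLH factors, were 3.05- and 2.79-fold lower, Id3 at 242, 220.2 and 237 against 62.4, 81.1 and 85.8. Gdf6, a BMP ligand, was 1.29 lower on the log2 scale. On the other side, Smad7, the inhibitor of TGF-beta receptors, stood at 75.8, 72.2 and 60.3 against 298, 293 and 249.8 (4.0-fold higher), and the other was Hey2, a NOTCH target. Hey2 had 12, 3 and 7 reads in libraries 4 to 6 and 8, 23 and 33 in 10 to 12, so its difference is imprecise. With set means of 6.61 and 24.3, it reached the minimum mean of 10 through libraries 10 to 12. The choice of genes thus fixed part of the higher count. Heyl, Id3 and Id1 were also the 3 lower genes among 22 myogenic regulators, none of which were higher.

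Ribosome biogenesis had the lowest list median in the deposited scaling, -0.49, with 5 of 25 genes lower and none higher. Without overlap 16 were lower and 1 higher, where 20.0% of all genes were lower and 20.0% higher. Rrs1, a ribosome assembly factor, stood at 146, 122 and 122 against 50.7, 32.7 and 56.3 (2.81-fold lower). Nop58, a core protein of box C/D particles, stood at 296, 277 and 298 against 99.4, 131 and 134 (2.40-fold lower), and Ddx21, a nucleolar helicase, at 614, 615 and 674 against 281, 242 and 291 (2.34-fold lower). Nolc1 and Gnl3 were the others. Among the proteins of the ribosome itself, none of 85 cytosolic and none of 77 mitochondrial ribosomal protein genes passed, with medians of -0.02 and -0.16. Without overlap 13 of the 85 cytosolic genes were higher and 20 lower. Of the 77 mitochondrial ones 1 was higher and 26 were lower in that way.

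Kpna2, an importin alpha of nuclear import, stood at 769, 755 and 729 against 275, 268 and 280.4 (2.73-fold lower). The remaining leaders were Arsj, an arylsulfatase, Prnd, Lrfn4, the prostacyclin receptor Ptgir and Lurap1l, from 2.65- to 2.73-fold lower. Cell cycle genes had 2 of 46 higher and none lower, with a median of -0.13. The 2 were Cdkn1b, the cell cycle inhibitor p27, at 2.85-fold, and E2f1 at 2.37-fold. Without overlap 8 of the 46 were higher and 18 lower, where 20.0% of all genes were higher and 20.0% lower. Among 55 histone genes 2 were lower, Hist1h2bj (2.28-fold) and Hist1h2ae (2.12-fold), and reads of such near-identical copies are uncertain. The histone list had a median of -0.31, with 2 higher and 21 lower without overlap. Of 19 p53 targets 1 was lower, Tigar (2.42-fold), a regulator of glycolysis. The p53 list had a median of -0.27, with 3 higher and 12 lower without overlap.

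Genes of the contractile apparatus and the respiratory chain are set beside all genes, of which 4.33% were higher and 1.82% lower. A count of none or 1 in a short list lies near those shares. Of 38 sarcomere genes 1 passed, Myh7, the slow myosin heavy chain, at 14.8, 21.2 and 10.6 against 44.8, 21.4 and 36.2, and the sets nearly touched in libraries 5 and 11. None of 19 calcium handling genes, 63 nuclear respiratory chain genes or 13 mitochondrially encoded genes passed. The nuclear respiratory chain genes had a median of -0.08. Of these 63, 13 were lower and 1 higher without overlap, where 20.0% of all genes were lower and 20.0% higher. Atp5b, an ATP synthase subunit, stood at 8750, 8061 and 8304 against 7120, 7385 and 7923. Mitochondrially encoded genes had a median of -0.42, the second lowest of the lists, with 6 of 13 lower and 1 higher without overlap, where 20.0% of all genes were lower in that way. No heat shock gene of 23 and no interferon response gene of 47 passed, and the medians of those lists were -0.11 and -0.01. Growth and atrophy genes had 5 of 28 higher and 1 lower, led by Fstl3, an activin antagonist (3.48-fold), Foxo3 (3.17-fold) and Ddit4, an inhibitor of mTORC1 (2.98-fold), with Ddit4l 2.56-fold lower. In fatty acid oxidation and mitochondrial biogenesis 1 of 26 passed, Ppard (2.85-fold), in autophagy 3 of 34, and in cholesterol synthesis 1 of 28, Stard4 (2.02-fold).

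The label of the cells was checked with markers. All 10 myotube markers were measured, none passed the rule, and their summed level was 29428 to 31560 in libraries 4 to 6 and 30683 to 32812 in 10 to 12. Without overlap 3 of the 10 were higher and none lower. Summed markers of other cells moved a little. Fibroblast markers stood at 43316 to 45659 and 47035 to 49968. Of 7 measured, 1 was higher and 3 lower without overlap, so the sum does not describe each marker. Endothelial markers stood at 1274 to 1356 and 1386 to 1569 (with 1 of 7, Cldn5, lower by the rule), and 2 of the 7 were higher without overlap. Smooth muscle and pericyte markers stood at 10548 to 11029 and 9388 to 9970, with 1 of 6 higher and 2 lower without overlap. Of all genes, 20.0% were higher and 20.0% lower in that way. Schwann and neural markers were low, at 17.7 to 29.7 and 29.2 to 55.2, and both adipocyte markers in the table, Adipoq and Cfd, were at 0 in all 6 libraries. The part of these small shifts, and of the abundant transcripts, in the gene differences was not tested.

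The wildtype libraries, labelled 21% oxygen, hold 2 sets of the same kind, and their values are given beside those of the knockout with no test. The 2 comparisons share no library, but the wildtype sets were picked with the same genes known. Libraries 7 to 9 had 525 of the 12448 genes higher than libraries 1 to 3 (4.22%) and 199 lower (1.60%). Of the higher genes 346 were shared, which is 64.2% of the knockout list and 65.9% of the wildtype list, and of the lower genes 68, or 30.0% and 34.2%. The wildtype median was 1.29 for the genes higher in the knockout and -0.77 for those lower. Across the 12448 genes, which are not independent replicates and share the normalization, the log2 differences had a Pearson correlation of 0.67. Wildtype library 2 stood apart, with 29.6% of genes at 0 against 13.0% to 21.9% in the other 11, and without it the wildtype counts were 464 higher and 189 lower, of which 352 and 79 were shared, and the correlation across genes was 0.75. The lower count was 316 without library 1, 308 without library 3 and 226 to 234 without 1 of libraries 7 to 9. With a library left out, no overlap is judged on 2 values against 3, which is easier to meet.

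Leading genes of the knockout are set beside their wildtype values here. On the log2 scale, knockout before wildtype, the values were 3.25 and 3.14 for Egln3, 4.08 and 3.89 for Ndrg1, 3.80 and 3.43 for Fam117b, 4.38 and 4.78 for Nos2 and -3.32 and -2.60 for Ccl2. The hypoxia list had a median of 1.73 in both, and ribosome biogenesis had -0.49 in both, while without wildtype library 2 the wildtype medians were 1.61 and -0.42. Wider gaps were seen in Selenbp1 (5.71 and 4.61), Ppp1r3c (3.92 and 2.70), Nop58 (-1.27 and -0.32) and Slc2a12 (2.11 and 0.21), and without wildtype library 2 their wildtype values were 4.6, 2.2, -0.56 and 0.02. Other wildtype values rested on library 2. Cacna1h stood at 33.5, 132 and 10.3 in wildtype libraries 1 to 3, and its values of 5.04 and 3.38 became 5.04 and 4.29 without library 2. Smad7 stood at 84.5, 328 and 111 there, and its values of 2.00 and 0.52 became 2.00 and 1.10. For Ppp1r3c the levels of the low sets differed, with a mean of 11.9 in knockout libraries 4 to 6 and 45.9 in wildtype 1 to 3, and those of the high sets were 192.6 and 273.3. For Selenbp1 the same means were 28.9 and 61.7 in the low sets and 1544 and 1527 in the high sets. Ciart differed by 2.74 in the knockout and 3.71 in the wildtype, but it stood at 28.2, 0 and 28.0 in wildtype libraries 1 to 3, and without library 2 the wildtype value was 2.09, below that of the knockout. The difference between the labels was not tested for any gene, and nothing here is shown to be particular to the knockout.

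**Figure D5:**
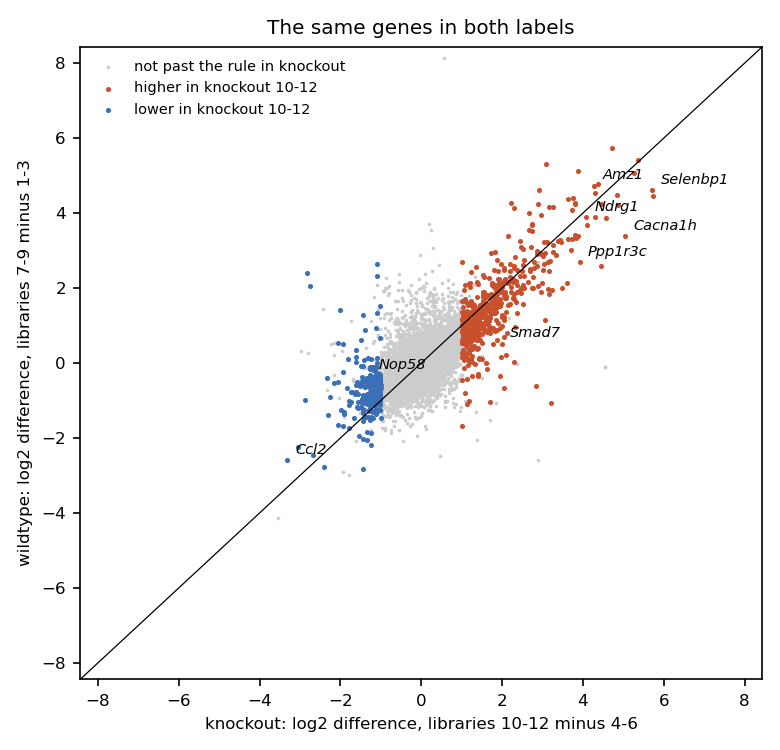
Log2 difference in the knockout (libraries 10 to 12 minus 4 to 6) against that in the wildtype (7 to 9 minus 1 to 3), 1 point per gene with a mean of 10 or more, with the line of equal values. Red and blue points passed the rule in the knockout as higher and lower; the Pearson correlation across genes is 0.67.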

How the data were processed

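Stranded total RNA libraries of 12 myotube samples were deposited as 1 table of 20201 genes. Its values, a signal in normalized counts, were made by the authors with, per the submitters' processing notes, Trimmomatic 0.33, STAR 2.5.2, RSEM 1.3.3 and DESeq2 on mm10. For the annotation, no name is given in the sources used here. Ambiguous reads are shared by estimate in RSEM, so near-identical genes are uncertain. Whole reads were recovered for 100% of values (tolerance 1e-06 reads) by taking a column's smallest nonzero value as 1 read, and totalled 6376584 to 12463339 per library. Intervals and floors of 3 reads cover counting error only.

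GENCODE M21 named 19970 identifiers, and promoters came from RefSeq (GRCm38.p6). The sets of libraries follow the numbers in the sample titles, and both knockout sets have the same labels. The members and the gene lists were chosen with earlier results of these data known. A few members are not reported here and are left out of the list counts and medians. No count model was used as a test, because the sets were picked on the values compared. Genes with a mean of 10 or more over the 6 knockout libraries were kept, and log2(value + 1) means were compared. The 2-fold rule with no overlap called 539 higher and 227 lower genes, and edgeR 4.0.16 (TMM, fold only, on the recovered reads) called 517 and 198. The rule was checked on simulated data. No 2 libraries of a knockout set were alike within sampling noise (chi-square per degree of freedom 2.97 to 4.23).

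The named genes are Arntl and the 4 choosing genes, the 12 largest rises and 12 largest falls at a mean of at least 50 (without predicted genes, pseudogenes, Rik clones and mitochondrial rRNA and tRNA), up to 3 risers and 3 fallers per pathway list or its most abundant member where none passed, and all measured clock genes. Other genes that the text prints, some to complete a small count, were chosen after their values were seen. Alternatives were other pseudocounts (0.5 and 10), minimum means, scalings and folds, and each library left out. Leaving out the genes above 1% of reads, and the wildtype values without library 2, were chosen after seeing the data. R 4.3.3 and Python 3.11.15 were used.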

Additional observations from a re-analysis of the deposited data

Results flagged for a closer look

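Of the genes past the 2-fold rule under both genotype labels, 4 lay in opposite directions, and the difference between the labels was not tested for them. The log2 difference in the knockout (libraries 10 to 12 minus 4 to 6) was 3.21 for Gm20683, 1.14 for Prdm9, a meiotic histone methyltransferase gene, and 1.01 for Stab1, a scavenger receptor gene, while in the wildtype (7 to 9 minus 1 to 3) it was -1.06, -1.09 and -1.67. For Snora9, a small nucleolar RNA, it was -1.08 in the knockout and 2.31 in the wildtype. Snora9 stood at 50.2, 0 and 43.0 in wildtype libraries 1 to 3, and without library 2, the library with the most genes at 0, its wildtype value was 0.46. The wildtype values of Gm20683, Prdm9 and Stab1 without that library were -0.73, -0.74 and -1.16. Gm20683 stood at 2.47, 0 and 25.7 in knockout libraries 4 to 6.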

How the results depend on the processing

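The counts of 539 higher and 227 lower genes moved with the thresholds. With a minimum mean of 50 they were 341 and 88, with no minimum 857 and 431, at 1.5-fold 1165 and 786, and with no minimum fold 2487 and 2491. A pseudocount of 10 gave 426 and 99. The share of higher genes among those passing was 70.4% as reported, 81.1% with the pseudocount of 10 and 60.5% without the abundant genes, a setting chosen after seeing the data. Leaving out each library gave 562 to 589 higher and 255 to 297 lower. The other scalings kept both counts within 1.5 times. edgeR's TMM fold gave 517 and 198, of which 513 and 195 were among those reported.

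The median of the hypoxia-induced list (1.73) was 1.58 with a pseudocount of 10. That of ribosome biogenesis (-0.49) was -0.57 with quantile normalization, -0.58 without the abundant genes, and -0.61 to -0.46 with 1 library left out, lowest without library 6. Of 1053 values for the 81 named genes past the rule, 993 stayed within 1 SD, 60 moved and 0 reversed. The 6 that fell under 2-fold in some setting were Ppp1r15a, Tigar, Hist1h2ae, Plod1, Myh7 and Stard4. No paired analysis was possible because the comparisons come from no test and replicate numbers follow accession order. Depth outside the abundant genes, 2307238 reads in library 10, limits genes near 10 normalized counts.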
